A study of Mus musculus with 8 samples.

Results

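Chromatin accessibility was examined at 7 genes that mark the formative and primed states of pluripotency, Otx2, Fgf5, Pou3f1, Zic2, Sox4, Lef1 and Dact1, in mouse embryonic stem cells held in a paused state by mTOR inhibition. Open chromatin was measured by ATAC-seq (a transposase, Tn5, tags DNA where it can reach it), and each value is the deposited, scaled read count of a 201 bp peak. A peak was assigned to a gene when its centre lay inside the gene span on GRCm38 or within 50 kb of it. This gave 122 of the 134407 peaks in the table: 15 at Otx2, 8 at Fgf5, 22 at Pou3f1, 10 at Zic2, 16 at Sox4, 34 at Lef1 and 17 at Dact1. The rule used position only, and no measured value. At the edge of the window, the closest peak inside lay 49439 bp from Dact1 (75.6 in control, 73.5 in paused samples on average), and the closest outside lay 50745 bp from Otx2 (14.3 and 10.03).

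Cells were of the E14 line with a wild-type genotype, grown on gelatin in serum with LIF. The 4 control samples had no inhibitor named in their labels, and the 4 paused samples were treated for 24 h with the mTOR inhibitor INK128 at 200 nM. Each library was made from 50000 live cells. All samples came from 1 cell line, and the labels do not say whether the replicates were separate cultures, so that p-values measure the spread between these samples, which may be technical.

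As background, naive embryonic stem cells resemble the early epiblast of the preimplantation embryo, and pass through a formative state before they become primed for differentiation. The transcription factors Otx2, Pou3f1 (Oct6) and Zic2 and the secreted growth factor Fgf5 are classical markers of that passage. Sox4 is an HMG-box transcription factor of many embryonic progenitors. Lef1 is a DNA-binding partner of beta-catenin in the Wnt pathway, and Dact1 is a cytoplasmic regulator of that pathway that binds Dishevelled. Inhibition of mTOR, the kinase that couples nutrients to growth, is known to slow embryonic stem cells into a state that resembles diapause.

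The number of reads in peaks was 4434037 to 7238935 in 7 libraries and 21161767 in control replicate 1, which was therefore measured more precisely than the others. Peaks lay within 1 kb of a start site or gene end for 5 of 6 embryonic stem cell markers (Sox2, Nanog, Esrrb, Zfp42 and Tfcp2l1, group means 114 to 273; none for Pou5f1) and for neither of the neural markers Pax6 and Sox1. Peaks were also present at all 4 fibroblast markers (58.2 to 166), at 2 of 3 primitive endoderm markers (85.1 to 130.1) and at 1 of 3 trophoblast markers (41.9 to 51.9), and the part of other cells in these signals was not tested. In bulk samples, a change in the share of cells with an open site and a change in how open it is in each cell cannot be told apart.

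Among the 5 genes with a RefSeq start site at hand (all but Pou3f1 and Zic2), 2 start sites had a changed peak reaching into the bases just upstream of them. These stretches are shown because a called peak reaches into bases just upstream of a start site, for Otx2 an internal one. They are the 250 bases before the RefSeq start site, from build GRCm38.p6, both on the minus strand and written 5′ to 3′; capitals mark the bases that lie inside the peak. The Sox4 stretch is chr13:28953700-28953949, of which 102 bases are in the peak. The Otx2 stretch is chr14:48662735-48662984, upstream of an internal start site of the gene, with 105 bases in the peak.
Sox4: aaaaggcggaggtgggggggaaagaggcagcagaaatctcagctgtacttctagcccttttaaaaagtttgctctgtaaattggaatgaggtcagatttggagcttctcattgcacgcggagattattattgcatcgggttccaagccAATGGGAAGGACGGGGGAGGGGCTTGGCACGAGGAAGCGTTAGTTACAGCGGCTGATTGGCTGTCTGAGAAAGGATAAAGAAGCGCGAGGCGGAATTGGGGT
Otx2: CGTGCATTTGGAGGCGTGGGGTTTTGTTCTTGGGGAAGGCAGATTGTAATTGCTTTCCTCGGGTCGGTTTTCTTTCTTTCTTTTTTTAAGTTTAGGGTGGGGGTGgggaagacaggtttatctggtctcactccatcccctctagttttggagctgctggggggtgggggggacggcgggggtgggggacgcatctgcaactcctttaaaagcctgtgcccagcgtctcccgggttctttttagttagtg

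Both peaks were higher in paused samples, with the values given with each gene. RefSeq promoter windows (250 bases before to 50 after a start) were at hand for 5 of the 7 genes, in 11 windows. The core TAATCC, bound by Otx2-type homeodomains, was found on either strand in 1 of the 11 windows, that of the Otx2 start site at 48665109, against 7.06% of 32817 windows of all genes. The Lef1 and Tcf core CTTTGAT was in 0 of the 11 (3.73% of all windows), and the core TTTGCAT of POU factors in 0 (4.63%). The printed stretches hold none of these 3 cores, which says only that these letters are not in these windows.

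The question was which of the loci gained and which lost accessibility on pausing. Of the 122 peaks, 118 had a mean value of at least 10 and were tested by limma-trend on log2(value + 1), fitted over all 127402 peaks that passed this limit. The peaks left out were 1 each at Otx2, Sox4, Lef1 and Dact1, with mean values of 2.501 to 9.81. At a Benjamini-Hochberg adjusted p under 0.05, 18 peaks were higher and 9 lower in paused samples, which is 15.3% and 7.63% of the members tested. Among all tested peaks 11.0% were called higher and 2.91% lower. The calls divided by gene: Otx2 had 5 higher and 0 lower, Sox4 5 and 0, Lef1 4 and 0, Zic2 1 and 0, Dact1 3 and 2, Fgf5 0 and 1, and Pou3f1 0 and 6. The median log2 change of the members was 0.11 and that of all tested peaks 0.10, and single changes are to be read against the latter.

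**Figure D1:**
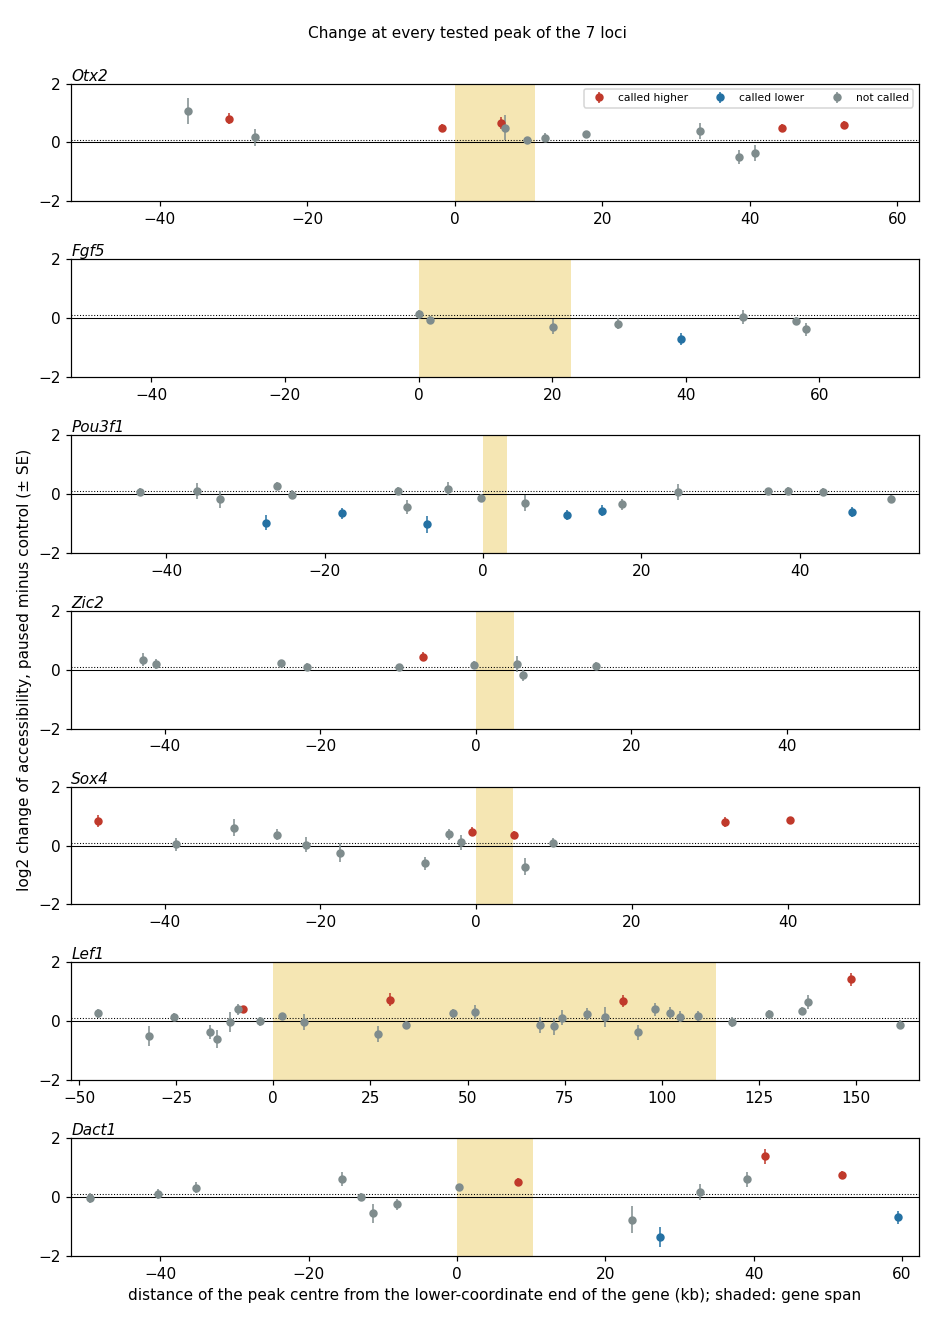
Log2 change (paused minus control, on the log2(value + 1) scale, bars ± SE) of each of the 118 tested peaks against the distance of its centre in kb from the lower-coordinate end of the gene, 1 panel per gene; red and blue points passed an adjusted p of 0.05, the shaded band is the gene span and the dotted line the median of all tested peaks (0.10). Red points appear on both sides of Otx2 and Sox4, and the 6 called points at Pou3f1 are all blue.

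In 15 members all 4 paused values lay above all 4 control values, and in 10 all lay below (12.7% and 8.47%, against 13.0% and 4.36% of all tested peaks). Of the 27 called peaks 20 had such a separation. The authors' deposited table lists an FDR under 0.05 for 25 of the 122 peaks, 18 higher and 7 lower (9.19% and 1.80% of its peaks), and all 25 were called here in the same direction. These are the same libraries, so that the overlap is not independent evidence.

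The called peaks were spread over the windows much as the tested ones were. Of 10 tested peaks within 1 kb of a start site (of a gene end for Pou3f1 and Zic2) 2 were called, and of 83 tested peaks more than 10 kb away 18 were called. The median distance was 27395 bp for called and 24169 bp for other tested members. By the spans of the RefSeq gene table, which does not separate exons from introns, 12 of the 27 called peaks were centred between genes, 4 inside the member gene itself, 9 inside long non-coding RNA genes and no protein-coding gene, and 2 inside another protein-coding gene. Of 26 tested peaks inside a member gene 4 were called, where 22.9% of all tested members were. For the other places the tested peaks were not counted, so that these counts show no preference. The peaks called higher were stronger, with a median mean value of 88.9 (range 26.4 to 220.4), than those called lower, with 31.2 (17.5 to 94.4); the median of all tested members was 43.3. After each sample was corrected by loess on mean peak strength, the call was kept by 7 of the 18 higher and 9 of the 9 lower peaks. Over all tested peaks this correction moved the number called higher from 13958 to 6476 and that called lower from 3702 to 4506. The shift is thus shared by the whole series.

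To see whether a locus moved as a whole, the values of all its peaks were summed in each sample, and the same was done for every protein-coding gene. Such sums were higher in paused samples at many loci: 50.0% of 20225 loci were called higher and 0.747% lower, with a median log2 change of 0.15, so that a call higher says little by itself. With TMM rescaling 10.6% were called higher and 1.85% lower, and after loess correction 5.77% and 7.26% (of 20203 loci), with medians of 0.0432 and -0.0160.

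**Figure D2:**
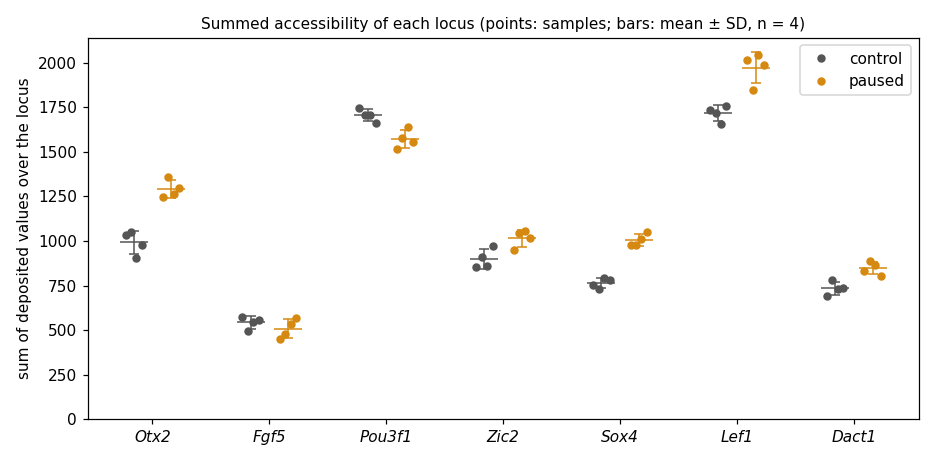
Summed deposited values of the peaks of each locus (linear axis from 0) in the 4 control and 4 paused samples, each point 1 sample, with bars for mean ± SD. The groups do not overlap at Otx2, Sox4, Lef1 and Dact1, where paused samples are higher, nor at Pou3f1, where they are lower.

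Otx2, the homeodomain factor that drives the exit from the naive state, gained accessibility. Its locus sum was 1036, 1052, 908 and 979 in control and 1249, 1360, 1265 and 1296 in paused samples, so that every paused sample was above every control sample. The log2 change was 0.38 (SE 0.05, limma-trend adjusted p = 2.7e-05), which is 0.24 above the median of all loci and larger than that of 94.7% of them. It was 0.28 with TMM rescaling (adjusted p = 0.00162) and 0.21 after loess correction (0.00831), and passed in both. Of its 14 tested peaks 12 had a change above 0, and their median was 0.45.

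The strongest Otx2 peak lay 7670 bp from the nearest start site, beyond the 3′ end of the gene (chr14:48654964-48655164). Its values were 188, 189, 154 and 198 in control and 212, 312, 262 and 247 in paused samples. They rose 1.42-fold (log2 change 0.49, SE 0.12, adjusted p = 0.00429 by limma-trend), with no overlap. The pair of peaks with the smallest adjusted p lay upstream, inside the non-coding RNA gene Otx2os1. The one 41958 bp from the start (chr14:48709502-48709702) went from 121, 135, 93.1 and 97.0 to 188, 156, 149 and 173 (log2 change 0.59, SE 0.13, adjusted p = 0.00202 by limma-trend). The one 33534 bp away (chr14:48701078-48701278) went from 177, 185, 152 and 172 to 218, 267, 261 and 231 (log2 change 0.50, SE 0.11, adjusted p = 0.00219 by limma-trend). Control and paused samples did not overlap at either of them.

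A weaker peak on the other side, 36546 bp from the nearest start site (chr14:48626088-48626288), went from 31.9 ± 5.47 to 57.6 ± 15.6 (SD, n = 4; log2 change 0.81, limma-trend adjusted p = 0.00397). It kept its call in each of the 17 other fits compared here. The peak 246 bp upstream of the internal start site, whose sequence is given above (chr14:48662880-48663080), had values of 38.7, 39.4, 25.4 and 38.2 in control and 64.6, 77.3, 40.3 and 48.0 in paused samples. All paused values were above all control values, by a small margin at paused replicate 3 (log2 change 0.66, SE 0.20, limma-trend adjusted p = 0.0194). Without control replicate 3, paused replicate 1 or paused replicate 2 this call was lost, with an adjusted p of up to 0.108, as it was with TMM rescaling (0.0611), after loess correction (0.0847) and in DESeq2 (0.169). After loess correction the other Otx2 peaks at 48654964, 48701078 and 48709502 had adjusted p of 0.101, 0.0647 and 0.0533, so that they lost their calls with changes of 0.29, 0.30 and 0.38. In DESeq2 the first and the last of these had 0.0666 and 0.0547. The peaks nearest to the 5′ end of Otx2 were not called. The one inside the gene, 1007 bp from a start site (chr14:48666401-48666601), went from 149 ± 6.22 to 159 ± 20.9 (SD, n = 4; log2 change 0.08, limma-trend adjusted p = 0.722). The one 1429 bp upstream (chr14:48668973-48669173) went from 75.9 ± 11.9 to 84.7 ± 3.62 (SD, n = 4; log2 change 0.17, limma-trend adjusted p = 0.464).

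Sox4, the SoxC transcription factor, also gained accessibility. Its locus sum was 752, 729, 791 and 779 in control and 979, 979, 1013 and 1051 in paused samples (log2 change 0.40, SE 0.06, adjusted p = 2e-05 by limma-trend). No paused sample was within the control range, and the change was 0.25 above the median of all loci and larger than that of 95.4% of them. It was 0.30 with TMM rescaling (adjusted p = 0.000922), 0.25 after loess correction (0.0012) and 0.22 with a window of 20 kb (0.0137), and passed in each. The peaks with the smallest adjusted p lay upstream of the gene. The peak 35450 bp upstream (chr13:28989049-28989249) had 88.2, 88.4, 98.2 and 107 in control and 163, 155, 185 and 194 in paused samples. This 1.82-fold rise (log2 change 0.86, SE 0.13, limma-trend adjusted p = 1.2e-05) had the smallest adjusted p of all 118 members. Its neighbour 27144 bp upstream (chr13:28980743-28980943) went from 55.7, 63.3, 45.7 and 47.0 to 113, 85.2, 93.1 and 79.7 (log2 change 0.80, SE 0.15, adjusted p = 0.000454 by limma-trend). Both kept their calls in all 17 other fits, as did a peak 53334 bp from the start on the 3′ side (chr13:28900265-28900465; 30.3 ± 8.49 to 54.1 ± 12.7, SD, n = 4; log2 change 0.82).

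The Sox4 promoter peak, centred 2 bp from the start site (chr13:28953601-28953801) and inside the non-coding RNA gene Gm46405, was also the strongest of the locus. Its values were 186, 169.6, 193 and 185 in control and 239, 203, 276 and 234 in paused samples, without overlap. The rise was smaller than at the upstream peaks (log2 change 0.37, SE 0.11, adjusted p = 0.0254 by limma-trend; the difference between peaks was not tested). It depended on the fit: the call was lost without control replicate 2, paused replicate 3 or paused replicate 4 (adjusted p up to 0.0959), under TMM scaling (0.118), in edgeR with TMM (0.0926), in DESeq2 (0.216) and after loess correction (0.352, with a change of 0.16). The fifth called peak, 5371 bp from the start (chr13:28948228-28948428), went from 77.2 ± 12.0 to 108 ± 22.5 (SD, n = 4) with overlapping groups (log2 change 0.46, limma-trend adjusted p = 0.0318). It lost its call without control replicate 1, 2 or 4 or paused replicate 2 or 4, with an adjusted p of up to 0.141, and also with TMM rescaling (0.115), in edgeR with TMM (0.0594), in DESeq2 (0.235) and after loess correction (0.265, with a change of 0.28). The other tested peaks of the locus had changes from -0.71 to 0.61, and 1 of them had all paused values below all control values without passing the test. The number of Sox4 peaks called higher was 3 with TMM rescaling, after loess correction, in edgeR with TMM, in DESeq2, without control replicate 2 and without paused replicate 4. In 7 of the other fits (a mean of at least 30, TMM rescaling, loess correction, both edgeR fits, the replicate block and without control replicate 3) 1 Sox4 peak was called lower.

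Pou3f1, the POU factor also called Oct6, was the only member locus whose sum was called lower with the deposited scaling. Its sum was 1748, 1707, 1705 and 1662 in control and 1517, 1580.4, 1637 and 1554 in paused samples, each paused sample below each control sample. The log2 change was -0.12 (SE 0.04, limma-trend adjusted p = 0.0309), which is -0.26 against the median of all loci; 2.799% of loci had a lower change. The call was lost without control replicate 1, 2 or 3 or paused replicate 1 or 4, with an adjusted p of 0.0897, 0.0529, 0.0572, 0.0608 and 0.0752. With TMM scaling and after loess correction the change was -0.22 and -0.29, and the call held.

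Of its 22 peaks 6 were called lower, on both sides of the gene, and 9 had a change above 0. The smallest adjusted p belonged to a peak 7638 bp from the gene (chr4:124668193-124668393), with 79.9, 77.6, 91.4 and 63.2 in control and 59.99, 53.6, 41.9 and 36.3 in paused samples. The paused values were all below the control values, at 0.615 of the control mean (log2 change -0.71, SE 0.17, adjusted p = 0.00366 by limma-trend), and the call was kept in all 17 other fits. A weaker peak 27395 bp away on the other side, inside the non-coding RNA gene Gm2164 (chr4:124630151-124630351), had 39.1, 33.4, 23.7 and 32.3 in control and 13.8, 18.9, 14.0 and 16.4 in paused samples. It fell to 0.491 of the control mean (log2 change -0.97, SE 0.24, limma-trend adjusted p = 0.00575), on 9 to 113 reads per sample.

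Also inside Gm2164, the peaks 17747 bp (chr4:124639799-124639999) and 7064 bp (chr4:124650482-124650682) from Pou3f1 fell by 0.65 and 1.03 on the log2 scale (limma-trend adjusted p = 0.0164 and 0.0181). The former lost its call without control replicate 1 or 3 or paused replicate 4 (adjusted p up to 0.1101). The latter lost it without control replicate 2 or 3 or paused replicate 2 or 4 (up to 0.0823) and in DESeq2 (0.0681). A peak 12022 bp away, nearest to Utp11 (chr4:124672577-124672777), went from 62.9 ± 4.25 to 43.5 ± 13.0 (SD, n = 4; log2 change -0.56, limma-trend adjusted p = 0.0289) with overlapping groups. Its call held in 2 of 8 fits that left out 1 sample, those without control replicate 3 or paused replicate 2, and the adjusted p in the others reached 0.113; in DESeq2 it was 0.0592. A peak inside the neighbouring gene Fhl3 (chr4:124704167-124704367) had 104, 94.3, 124 and 131 in control and 68.1, 48.9, 101 and 84.3 in paused samples (log2 change -0.61, SE 0.16, limma-trend adjusted p = 0.00865; 0.0698 without paused replicate 2).

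The peak nearest to the Pou3f1 gene end, 298 bp away (chr4:124657248-124657448), did not pass. It had 112, 134, 115 and 113 in control and 108, 89.9, 126 and 112 in paused samples (log2 change -0.13, SE 0.13, adjusted p = 0.561 by limma-trend), with overlapping groups. The strongest peak of the window, nearest to Fhl3 (chr4:124709087-124709287), did not pass either (235 ± 20.4 and 211 ± 15.5, SD, n = 4; log2 change -0.16, limma-trend adjusted p = 0.362), but after loess correction its change was -0.36 and passed (0.0175). The window holds parts of Utp11 and Fhl3, and Pou3f1 was the nearest protein-coding gene for 14 of the 22 peaks. With those 14 alone the summed change was -0.13 and did not pass (limma-trend adjusted p = 0.106).

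**Figure D3:**
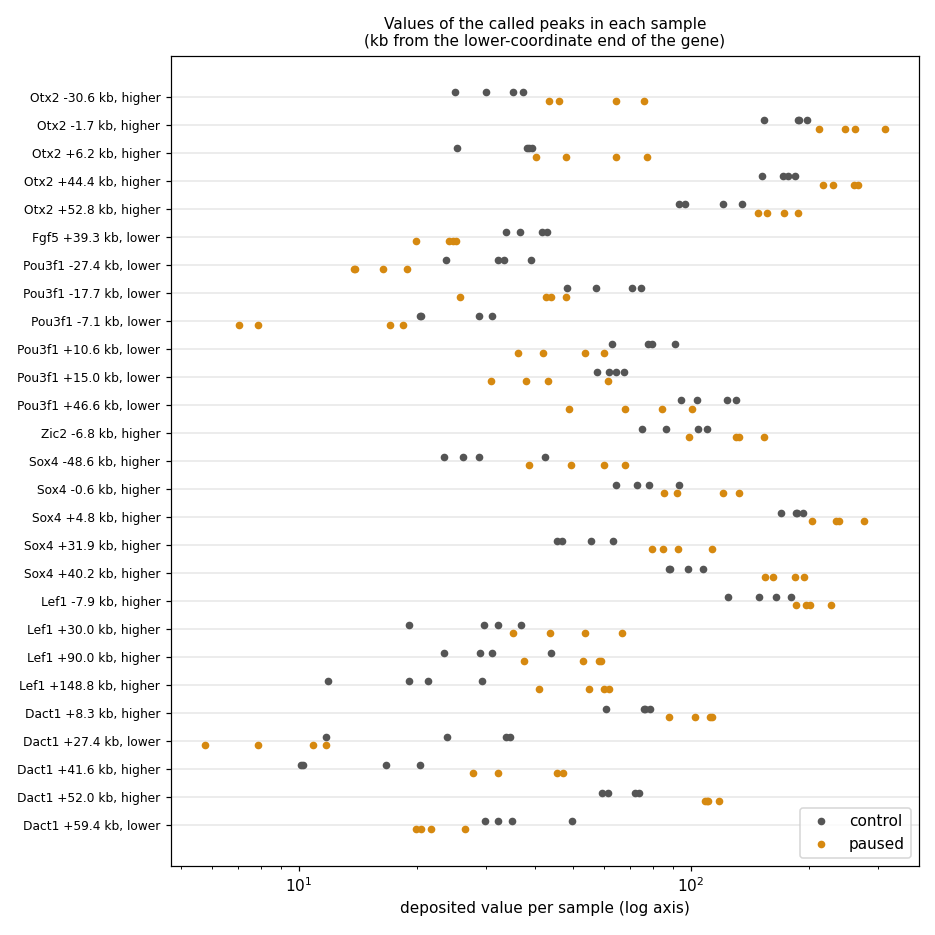
Deposited value of each of the 27 called peaks (log axis) in the 4 control and 4 paused samples, 1 row per peak, named by gene, distance of the peak centre from the lower-coordinate gene end in kb, and direction. The 2 groups are apart in 20 rows, as at Sox4 +40.2 kb (88.2 to 107 against 155 to 194), and overlap in 7.

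Fgf5, the growth factor used to mark the postimplantation epiblast, had a summed change near that of Pou3f1 (-0.1002 against -0.12) but was not called. Its 8 peaks all lay inside the gene (3) or on the 3′ side of it (5), and for the outermost 2 of these Cfap299 was the nearest protein-coding gene. The locus sum was 577, 496, 547 and 555 in control and 453, 476, 537 and 567 in paused samples, with overlapping groups (log2 change -0.1002, SE 0.08, limma-trend adjusted p = 0.265). That change is -0.25 against the median of all loci, and 3.11% of loci had a lower one. With TMM rescaling the summed change was -0.20 and did not pass (limma-trend adjusted p = 0.0628). After loess correction it was -0.26 and passed (adjusted p = 0.0101). The peak at the start site, centred 131 bp inside the gene (chr5:98254215-98254415), had 98.2, 87.2, 89.7 and 76.4 in control and 90.0, 72.5, 112 and 117 in paused samples (log2 change 0.13, SE 0.15, adjusted p = 0.582 by limma-trend). The strongest peak, 1750 bp inside the gene (chr5:98255834-98256034), had 203, 169.6, 196 and 220.4 against 163, 200.3, 171 and 227 (log2 change -0.06, SE 0.12, limma-trend adjusted p = 0.788). At both, the groups overlapped.

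The called Fgf5 peak lay 39315 bp from the start, downstream of the gene (chr5:98293399-98293599). Its values were 41.8, 43.0, 33.9 and 36.7 in control and 24.2, 25.2, 24.8 and 19.9 in paused samples, a separation without overlap at 0.606 of the control mean (log2 change -0.70, SE 0.21, adjusted p = 0.0188 by limma-trend). The call was lost without control replicate 1, control replicate 2 or paused replicate 4, with an adjusted p of up to 0.0696, and it held in edgeR with TMM (0.00260) and DESeq2 (0.0381). The other 7 peaks had changes between -0.38 and 0.13.

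Zic2, a zinc finger factor that occupies enhancers in embryonic stem cells, had 1 called peak among 10. It lay 6758 bp from the gene and nearer to the adjoining gene Zic5 (chr14:122468526-122468726). The values were 86.4, 75.2, 110.1 and 104 in control and 99.2, 132, 130.3 and 153 in paused samples, with overlap (log2 change 0.45, SE 0.14, adjusted p = 0.0291 by limma-trend). The call was lost without control replicate 1 or 2 or paused replicate 2, 3 or 4 (adjusted p up to 0.139), under TMM scaling (0.105), in DESeq2 (0.204) and after loess correction (0.264, with a change of 0.25). The peak 253 bp from the Zic2 gene end (chr14:122475031-122475231) had 129, 172, 113 and 170.5 against 134, 167, 219 and 136 (log2 change 0.16, SE 0.14, adjusted p = 0.499 by limma-trend). The strongest peak, inside Zic5 (chr14:122465440-122465640), had 183, 189.9, 193 and 192 against 195, 215, 177 and 223 (log2 change 0.09, SE 0.11, limma-trend adjusted p = 0.649).

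At the whole Zic2 locus the sum went from 855, 910.1, 862 and 971 to 948, 1043, 1055 and 1018, with overlap. The log2 change of 0.18 (SE 0.06, adjusted p = 0.0144 by limma-trend) was 0.03 above the median of all loci, and it turned to -0.01 after loess correction. Zic2 was the nearest protein-coding gene for 3 of the 10 peaks, and the sum of these changed by 0.12 (limma-trend adjusted p = 0.426).

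Lef1, which carries the Wnt signal to DNA with beta-catenin, has the longest gene and the most peaks. Of 33 tested peaks 4 were called, all higher. The sum of the locus was 1738, 1719, 1656 and 1757 in control and 2013, 1845, 2042 and 1988 in paused samples, without overlap (log2 change 0.20, SE 0.04, limma-trend adjusted p = 0.00129), which is 0.05 above the median of all loci. With TMM scaling it was 0.0966 (adjusted p = 0.128) and after loess correction 0.05 (0.417), neither of which passed.

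The largest rise in fold among all members was in the Lef1 window but inside the next gene, Hadh, which encodes an enzyme of fatty acid oxidation (chr3:131259009-131259209). Its values were 21.4, 19.1, 11.8 and 29.4 in control and 59.99, 41.0, 62.1 and 55.1 in paused samples, 2.67-fold higher with no overlap (log2 change 1.42, SE 0.22, adjusted p = 3.46e-05 by limma-trend). The call was kept in all 17 other fits, and the peak held 7 to 62 reads per sample. A Dact1 peak (chr12:71351339-71351539) rose nearly as much, 2.66-fold. After loess correction its log2 change was slightly the larger (1.336 against 1.325). Inside Lef1 itself, a peak 43976 bp from the nearest start site (chr3:131200170-131200370) had 29.0, 31.1, 44.0 and 23.5 against 53.1, 58.4, 59.0 and 37.5 (log2 change 0.70, SE 0.20, limma-trend adjusted p = 0.0149). A second one (chr3:131140178-131140378) went from 29.5 ± 7.57 to 49.8 ± 13.6 (SD, n = 4; log2 change 0.74, limma-trend adjusted p = 0.0159). Both had overlapping groups, and both lost the call without control replicate 4 or paused replicate 2, the second also without paused replicate 3 (adjusted p up to 0.0643 and 0.0833). Neither passed after loess correction (0.0651 and 0.0604) or in DESeq2 (0.130 and 0.153).

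The peak 7891 bp upstream of Lef1 (chr3:131102306-131102506) had 165, 124, 149 and 181 in control and 228, 197, 186 and 202 in paused samples, without overlap (log2 change 0.40, SE 0.12, adjusted p = 0.0227 in limma-trend). It lost its call without control replicate 2 or 3 or paused replicate 1 or 4 (adjusted p up to 0.0983). It also lost it with TMM rescaling (0.104), in edgeR with TMM (0.0897), in DESeq2 (0.241) and after loess correction (0.321, with a change of 0.20). The strongest peak of the locus (chr3:131112341-131112541), 350 bp from a Lef1 start site, had 179, 208, 209.97 and 184 against 217, 179.8, 237 and 247 (log2 change 0.17, SE 0.12, adjusted p = 0.352 by limma-trend). A weaker peak 309 bp from another Lef1 start site (chr3:131156503-131156703) did not pass either (log2 change 0.27, SE 0.15, adjusted p = 0.233 by limma-trend). The 28 tested peaks of the locus other than the called ones and the strongest had changes between -0.60 and 0.65.

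Dact1, the Dishevelled-binding regulator of Wnt signalling, had calls in both directions. Of 16 tested peaks 3 were called higher and 2 lower, and 4 of these 5 lay on the 3′ side of the gene. The peak 51956 bp from the start (chr12:71361740-71361940) had 61.5, 74.0, 59.3 and 72.0 in control and 111, 118, 110.2 and 109 in paused samples, a rise of 1.68-fold (log2 change 0.75, SE 0.14, adjusted p = 0.000251 by limma-trend). The peak 41555 bp from the start (chr12:71351339-71351539) had 20.4, 16.7, 10.2 and 10.3 against 32.3, 47.3, 27.9 and 45.7 (log2 change 1.38, SE 0.26, adjusted p = 0.000312 by limma-trend). Between these and the gene, 27402 bp from the start (chr12:71337186-71337386), the values were 23.9, 34.6, 33.9 and 11.8 in control and 5.77, 7.89, 10.9 and 11.7 in paused samples, a fall (log2 change -1.36, SE 0.33, adjusted p = 0.00423 by limma-trend). The stretch downstream of Dact1 thus held rises and a fall, with 2 peaks that were not called between the fall and the nearer rise (0.17 and 0.60). No groups overlapped at these 3 peaks, although at the last of them control replicate 4 (11.76) and paused replicate 4 (11.72) were nearly level.

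Farther out, 59396 bp from the start (chr12:71369180-71369380), the values were 34.9, 29.9, 32.2 and 50.0 against 26.5, 20.5, 21.7 and 19.9 (log2 change -0.68, SE 0.22, adjusted p = 0.0313 by limma-trend). That call was lost without control replicate 1 or 4 or paused replicate 2 or 4 (adjusted p up to 0.146) and in DESeq2 (0.0737). Inside the gene, 8267 bp from the start (chr12:71318051-71318251), a peak went from 73.1 ± 8.24 to 104 ± 11.6 (SD, n = 4; log2 change 0.50, limma-trend adjusted p = 0.0136; 0.0737 without control replicate 1). It also lost its call with TMM rescaling (0.0597), in DESeq2 (0.142) and after loess correction (0.160, with a change of 0.32). The peak 297 bp inside the start (chr12:71310081-71310281), the strongest of the locus, had 94.7, 122, 86.4 and 107 against 129, 132, 132 and 118, and did not pass (log2 change 0.33, SE 0.13, adjusted p = 0.0859 by limma-trend); without control replicate 2 it did (0.41, adjusted p = 0.0400). The sum of the locus was 691, 779.9, 729.8 and 735 in control and 834, 886, 866 and 806 in paused samples (log2 change 0.21, SE 0.06, adjusted p = 0.00632 by limma-trend), 0.06 above the median of all loci. It was 0.11 with TMM scaling (adjusted p = 0.226) and 0.07 after loess correction (0.404). The strongest peak lay 217 bp from an end of the neighbouring gene 2700049A03Rik, nearer than to Dact1's own start. The peaks of the window upstream of Dact1 were centred inside that neighbour.

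**Figure D4:**
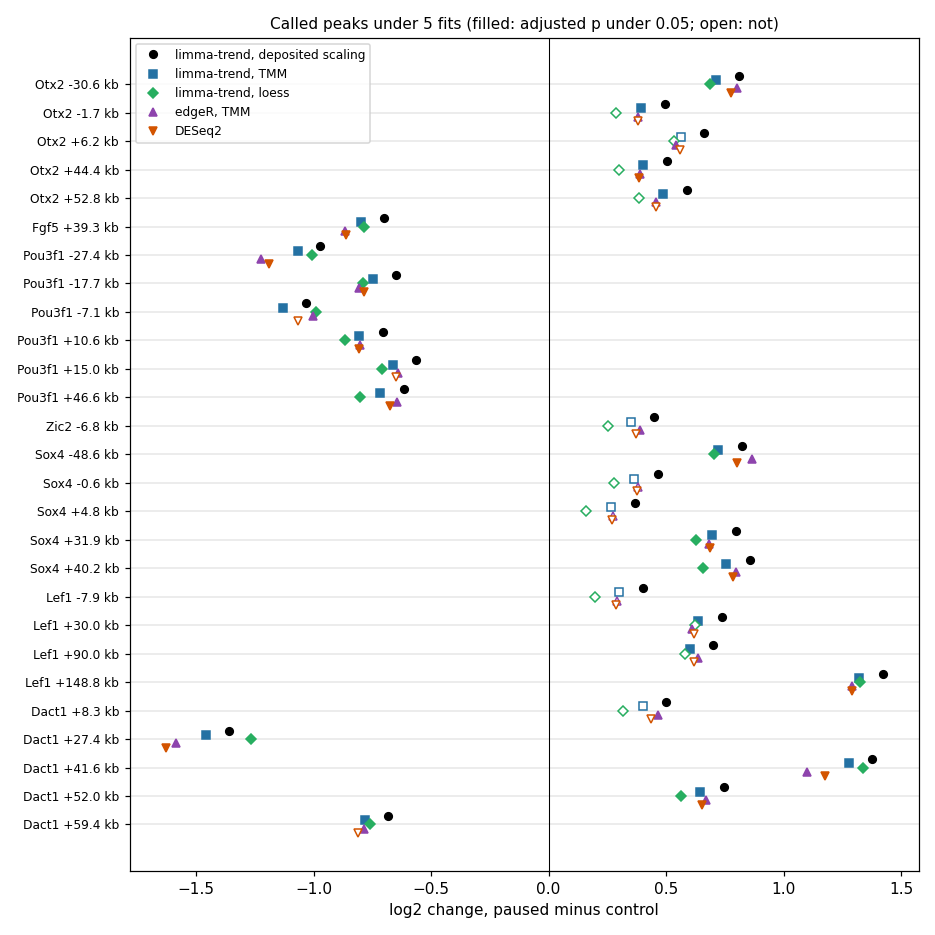
Log2 change (paused minus control) of the 27 called peaks in 5 fits, 1 row per peak, named by gene and distance of the peak centre from the lower-coordinate gene end in kb; a filled symbol passed an adjusted p of 0.05 in that fit and an open one did not (the deposited scaling chose the rows). No symbol changes side, and most open symbols are rises of under 0.7 on the log2 scale.

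The balance of calls depended on the scaling. With TMM rescaling 12 members were called higher and 10 lower (5.99% and 4.15% of all tested peaks), and after loess correction 7 and 11 (5.08% and 3.54%). On the recovered reads edgeR with TMM called 15 and 10 (7.40% and 5.31%), and DESeq2 called 8 and 6 (3.06% and 1.49%). Peaks that kept the call in all 17 other fits were 1 at Otx2, 3 at Sox4, 1 at Pou3f1, 1 at Lef1 and 1 at Dact1. The one counted at Lef1 lay inside Hadh, and the called peaks nearest to Lef1 itself each lost the call in some fits. A peak with a mean under 30 was not tested in the fit that required 30, which is counted here as losing the call. That was the only loss of the Pou3f1 peak at 124630151 and of the Dact1 peaks at 71337186 and 71351339.

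In order of the summed log2 change the loci were Sox4 (0.40), Otx2 (0.38), Dact1 (0.21), Lef1 (0.20), Zic2 (0.18), Fgf5 (-0.1002) and Pou3f1 (-0.12). With SE of 0.04 to 0.08, neighbours in this order differed by less than the sum of their SE at every step but that from Otx2 to Dact1 and that from Zic2 to Fgf5; the differences between loci were not tested. In density of peaks the loci ran from 6.51 per 100 kb at Fgf5 to 21.4 at Pou3f1.

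Other genes of the same state were counted in the same way, leaving out the peaks already counted. For 14 further formative or primed genes (among them Dnmt3a, Dnmt3b, Foxd3 and Etv5) 17 of 222 tested peaks were called higher and 7 lower (7.66% and 3.15%), with a median change of 0.04. Of their 14 locus sums, which kept every peak of each window, 5 were called higher and 0 lower, where 50.0% of all loci were called higher. Among the 5 was Foxd3, a forkhead factor of the epiblast (log2 change 0.31, SE 0.05, limma-trend adjusted p = 0.000127). Another was Zic5 (0.18, limma-trend adjusted p = 0.00558), whose sum includes peaks of the Zic2 window. Its 3 other peaks had a median change of -0.22, and 0 of them were called. For 14 further Wnt pathway genes 25 of 284 tested peaks were called higher and 7 lower (8.80% and 2.46%, with a median of 0.02). Of the 14 locus sums of this list 8 were called higher and 0 lower, against 50.0% of all loci called higher. Among these genes Ctnnb1, which encodes beta-catenin, had 6 of 8 peaks called higher, and its locus sum changed by 0.51 (SE 0.07, adjusted p = 1.54e-05 by limma-trend). Tcf7l1, the repressive Tcf factor of embryonic stem cells, had 0 of 57 called higher and 4 lower (7.02% lower, against 2.91% of all tested peaks). The summed values at Tcf7l1 hardly moved (-0.02) and did not pass in limma-trend (adjusted p = 0.693). Ctnnb1 and Tcf7l1 had the highest and the lowest summed change of the 14 genes. The related Tcf7l2 went the other way, with 4 of 34 peaks called higher and 0 lower. Its sum rose by 0.12 and passed in limma-trend (adjusted p = 0.0237). Both lists had a share of peaks called higher below the 11.0% of all tested peaks.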

How the data were processed

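ATAC-seq was made from 4 control and 4 paused samples; groups and replicate numbers come from the titles and columns were matched by library name. Per the submitters' processing notes, FastQC, Trim Galore, Bowtie2 2.4.1, MACS3 3.0.3 and DiffBind 3.16.0 were used with build mm10; the handling of the Tn5 offset, read filters and scaling is not given in the sources used here. Per sample the authors deposited a signal, the reads of each peak scaled by a factor of that library: at least 99.8% of the values of each sample are whole multiples of 1 step to within 0.0051. The authors also deposited log2 concentrations and log2 folds, and p-values with FDR, of their own comparison; they appear here only with that source named. Per-sample columns not used: 0.

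The test was limma-trend (limma 3.58.1, R 4.3.3) on log2(value + 1), over all peaks with a mean of at least 10 or over all locus sums, without covariates and with Benjamini-Hochberg adjustment. The pseudocount makes changes of weak peaks look smaller. On the recovered whole reads, edgeR 4.0.16 called 16187 peaks with TMM and 21045 with the deposited factors; DESeq2 1.42.0 was also run. Gene spans, neighbours and start sites are from RefSeq on GRCm38.p6; Pou3f1 and Zic2 were measured from their gene ends. The scripts were tested on simulated data. Peaks named by rule were, per locus, the strongest within 1 kb of a start site, the strongest of all, and up to 2 called peaks with the smallest adjusted p in each direction; the other called peaks are named because they make up the counts. Members, lists and tests were chosen with earlier results of these data known. A peak with 0 reads allows up to 3 reads, or 1.04 (control replicate 1) to 5.08 (control replicate 3) on the deposited scale, for counting error only. Same-numbered control and paused samples were not treated as pairs, because the correlation of their deviations was below 0.1 for some.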

Additional observations from a re-analysis of the deposited data

Results flagged for a closer look

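In 66 groups of 4 values (reads in peaks, 7 locus sums and 25 named peaks, in control and in paused samples) 3 had 1 sample far from the other 3, measured by its gap to the nearest value relative to the range of the group; chance gives about 1 in 20. Control replicate 1 had 21161767 reads in peaks, against 4434037 to 6262445 in the other control samples. At the Otx2 peak chr14:48662880-48663080 control replicate 3 had a value of 25.4, against 38.2 to 39.4 in the others, and the call at this peak was lost when it was left out. At the Pou3f1 peak chr4:124657248-124657448 control replicate 2 had 133.8, against 112.4 to 115 in the others; that peak was not called.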

How the results depend on the processing

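None of the 27 called peaks changed direction in 17 other fits. The call was kept by 7 in all of them, where removal by the filter at a mean of 30 counts as a loss. It was kept by 13 in all 8 that left out 1 sample, 21 with TMM rescaling, 16 after loess correction and 14 in DESeq2. The number of members called higher (18) was 7 after loess correction, 8 in DESeq2 and 9 of 69 tested with a window of 20 kb, and 13 to 17 when 1 sample was left out. The number called lower (9) was 4 to 8 when 1 sample was left out, with 5 without control replicate 1 and 4 without paused replicate 4. The loess correction alters values by peak strength; otherwise the cause was not tested. With TMM rescaling the summed changes of Zic2, Lef1 and Dact1 were 0.0741, 0.0966 and 0.107 and did not pass. After loess correction those of Lef1 and Dact1 were 0.0501 and 0.0710 and did not pass, that of Fgf5 was -0.264 and passed, and that of Zic2 turned to -0.0122. That of Dact1 was 0.115 with a window of 20 kb, and with peaks of the nearest gene only (chosen after seeing the data) those of Pou3f1 and Zic2 were -0.132 and 0.121, none of which passed. Leaving out 1 sample, the sum of Pou3f1 changed by -0.1375 to -0.1009. Directions also turned at peaks that were not called: the strongest Zic2 peak had -0.0142 with TMM, -0.118 after loess correction and -0.0048 in DESeq2. After loess correction the peaks at the Fgf5, Zic2 and Lef1 start or gene end had -0.0533, -0.0476 and -0.0383, and the strongest Fgf5 peak had -0.148 to 0.0116 when 1 sample was left out. With the replicate number as a block, 20 members were called higher and 10 lower, and no locus sum changed its call. The correlation of deviations of same-numbered samples was 0.0358 to 0.133, and 6 of 8 samples correlated best with their own number, a hint from the data and not the design. Weak peaks rest on few reads: the Pou3f1 peak at 124650482 had 5 to 59 reads per sample.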

Other observations

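Genes of the naive state, from a list of 10 chosen with earlier results of these data known, were counted by the same window. Of 195 tested peaks 40 were called higher and 6 lower in paused samples (20.5% and 3.08%, against 11.0% and 2.91% of all tested peaks), with a median log2 change of 0.16. Of their 10 locus sums 9 were called higher and 0 lower, where 50.0% of all loci were called higher. The largest was that of Nr0b1, an orphan nuclear receptor of naive cells (log2 change 0.73, SE 0.11, limma-trend adjusted p = 6.55e-05), followed by Tcl1 (0.38), a coactivator of Akt, and Zfp42 (0.33), the zinc finger gene also known as Rex1. Otx2 and Sox4, with 0.381 and 0.399, lay below Nr0b1 and slightly above Tcl1 (0.376), the next of these naive loci. The differences were not tested.

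The genes whose summed values followed those of a member most closely over the 8 samples, sharing no peak with it, were Sgsm3 for Otx2 (Pearson r 0.995), Trip12 for Sox4 (0.995), Hnrnpa2b1 for Zic2 (0.994), Apba2 for Lef1 (0.992) and Cmah for Dact1 (0.985). These values describe a change that many loci share: 1950 of 20224 genes had r over 0.9 with Otx2 and 2807 with Sox4. For Pou3f1 the closest was Gm7137 (0.931), and 10 genes had r over 0.9.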
